A study of Drosophila melanogaster with 16 samples.

Results

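The comparison described here is that of adult fly hearts carrying a mutation of seizure (sei) with hearts of the Canton-S control line, and it covers every gene read by the array. Its members are 10 of the 16 arrays of the series: 5 arrays of sei mutant hearts and 5 arrays of Canton-S hearts, named WtCS. Each array read RNA pooled from 30 hearts of 3-week-old flies, from which fat and tracheoles had been sucked away. The sei flies carried sei ts1, an allele induced on the second chromosome by ethylmethane sulfonate that paralyses flies in the heat and that places a stop codon ahead of the membrane-spanning part of the channel. WtCS flies carried the unmutated gene and stood for the genetic background of the mutants. The other 6 arrays, which enter below only as further levels to look at, hold 3 of KCNQ370 mutants, an imprecise excision of a P element, and 3 of the precise excision line WtPE, which keeps KCNQ intact.

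sei encodes the fly counterpart of human ERG (hERG), a voltage-gated potassium channel whose current, IKr, helps to end each cardiac action potential. Loss of this current in people prolongs the QT interval of the electrocardiogram and can bring on arrhythmia. In the fly, a heart tube of a few working myocytes pumps hemolymph and lies among pericardial nephrocytes, hemocytes, fat body and the nerve and muscle fibers that attach to it, and RNA of all of these can enter a dissected heart.

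Several features limit the groups as models. The mutation was present in the whole fly and through all of its life, so that a change in the heart need not have begun there. Each genotype was 1 stock, and the allele, other changes brought in by the mutagen and differences between the stocks cannot be told apart. The sex of the hearts was not given in the labels of the samples. Array names place sei replicates 4 and 5 with WtCS replicates 4 and 5, and with all KCNQ and WtPE arrays, in an array run called A here. WtCS replicates 1 and 2 were in run B, and sei replicates 1, 2 and 3 with WtCS replicate 3 in run C, so that run C has 1 control array. The same names repeat a sample code between sei replicates 2 and 5, between sei replicates 3 and 4 and between WtCS replicates 2 and 3. Arrays are titled as biological replicates. Where a repeated code means 1 shared RNA, the spread behind the p-values is partly technical.

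All levels below are log2 intensities as normalized by the authors, and all differences are sei minus WtCS on that log2 scale, so that 1 unit is a doubling of intensity. The level of 1 gene cannot be set against that of another on such arrays. In pooled tissue, fewer cells of a type and less RNA per cell cannot be told apart. Arrays of sei hearts correlated with each other at r between 0.969 and 0.991 within a run and between 0.939 and 0.966 across runs. WtCS arrays correlated at 0.956 to 0.982, and sei with WtCS arrays at 0.947 to 0.967 within a run. Heart-defining markers were present in both groups: Hand, a transcription factor of all heart cells, read between 11.83 and 12.06 in sei hearts, and between 12.02 and 12.43 in WtCS hearts, and its difference of -0.22 was not called (limma adjusted p = 0.36). Summed intensity of 7 heart and muscle markers was 5880 to 7490 in sei hearts and 6320 to 8070 in WtCS hearts, which overlap. Hand is bright and weighs heavily in this sum. Of the 7 differences 2 were above 0, the median was -0.22, and pnr was called lower (-1.14).

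The mutated gene was read first. The sei transcript, read by 1 probeset, gave 5.00, 4.76, 5.25, 5.19 and 3.89 in sei replicates 1 to 5, against 5.31, 5.84, 5.94, 6.03 and 5.75 in WtCS replicates 1 to 5. Every sei array thus lay below every WtCS array. The difference was -0.96 (SE 0.25, adjusted p = 0.0212), and -1.17 with array run as a covariate (adjusted p = 0.0197). KCNQ hearts averaged 5.39 and WtPE hearts 5.73. The difference was not past the threshold in a fit of the 10 arrays alone, where its adjusted p was 0.0582. ppk29, which encodes a sodium channel of the degenerin family and is the next gene on the chromosome, was also lower, by -0.92 (adjusted p = 0.0242).

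Of 18769 probesets tested, 2089 (11.1%) passed an adjusted p of 0.05 and are referred to as called. Of these, 1215 (6.47% of all) were higher and 874 (4.66% of all) lower in sei hearts. Taking 1 probeset for each of 11982 genes, 1736 genes (14.5%) were called, 1065 (8.89%) higher and 671 (5.6%) lower, and these shares are the background for every group of genes below. The median difference over all genes was 0.04. The thresholds named in the study's methods, a fold over 2 with an unadjusted p under 0.05, gave 1170 probesets higher (6.23%) and 830 lower (4.42%). Among the called probesets 1452 changed by more than 2-fold and 100 by more than 8-fold, with 71 of the 100 upward and 29 downward.

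**Figure D1:**
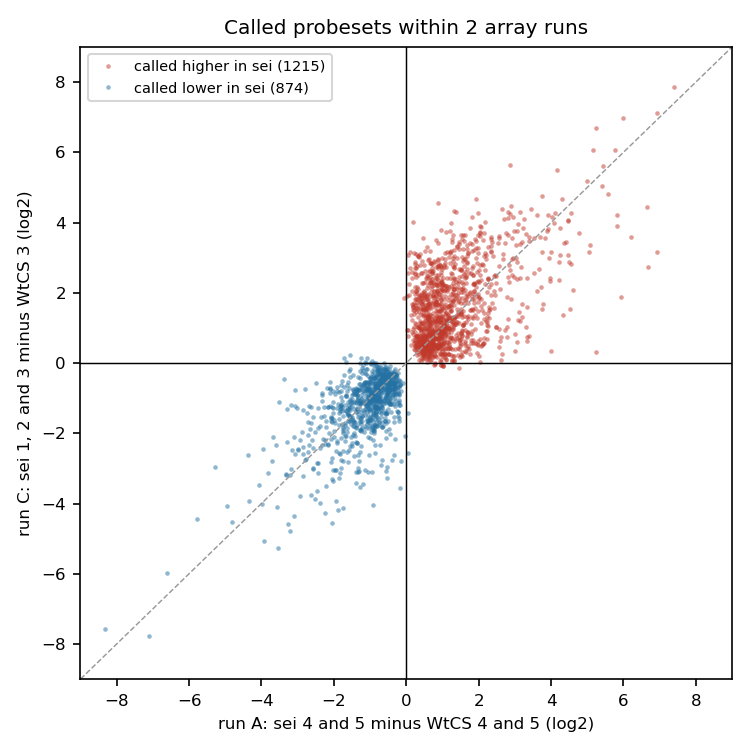
Difference between sei and WtCS hearts for each of the 2089 called probesets, within run A on the horizontal axis (sei replicates 4 and 5 minus WtCS replicates 4 and 5, log2) and within run C on the vertical axis (sei replicates 1, 2 and 3 minus WtCS replicate 3, log2); red points were called higher and blue points lower in sei, and the dashed line marks equal differences. Of the called probesets 2066 had the same sign within both runs.

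The 5 sei arrays lay wholly outside the range of the 5 WtCS arrays for 1346 probesets (7.17%), 1145 of them called. A narrower set had all 5 sei arrays above, or all below, each of the 11 other arrays: 531 probesets (2.83%), 282 above (1.5%) and 249 below (1.33%). Over genes, 253 (2.11%) were above and 187 (1.56%) below. For these, the level of sei hearts stood apart from 3 other genotypes and not from WtCS alone. The remaining called probesets include many for which KCNQ and WtPE hearts had the level of sei hearts and WtCS hearts were the group that differed.

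The largest rise was that of Obp46a, of the odorant-binding proteins, small secreted carriers of hydrophobic molecules. It read 9.86, 10.07, 10.03, 9.33 and 9.39 in sei replicates 1 to 5, against 1.99, 2.11, 2.13, 1.91 and 2.00 in WtCS replicates 1 to 5. All 11 other arrays were at the foot of the scale, with means of 2.03 in KCNQ and 2.30 in WtPE hearts. The difference was 7.71, or 209-fold (SE 0.18, adjusted p = 1.77e-13). CG9109 behaved alike, at 7.15, 7.29, 6.84, 7.76 and 7.96 in sei replicates, against 2.55, 4.33, 2.86, 1.93 and 2.18 in WtCS replicates, a difference of 4.63 (SE 0.40, adjusted p = 2.08e-06). lectin-24A, a C-type lectin, read 6.54, 4.42, 6.01, 8.89 and 8.86 in sei replicates, against 2.46, 1.59, 1.23, 1.66 and 2.81 in WtCS replicates (adjusted p = 0.000208). Its rise of 5.00 was less even among sei arrays, with the 2 arrays of run A highest, but its sei arrays also exceeded every other array.

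Map205 and Acbp2 showed the other pattern. Map205, a microtubule-associated protein, read 8.31, 8.50, 7.68, 8.65 and 9.01 in sei replicates, against 2.74, 1.27, 1.04, 1.94 and 1.86 in WtCS replicates, a difference of 6.66 (adjusted p = 1.97e-09). KCNQ hearts at 8.86 and WtPE hearts at 9.32 were at the level of sei, and WtCS was the only genotype of the 4 with a low value. Acbp2, which encodes an acyl-CoA binding protein, read 12.73, 12.72, 12.81, 12.17 and 12.14 in sei replicates, against 6.48, 7.37, 5.77, 6.39 and 5.93 in WtCS replicates, a difference of 6.12 (adjusted p = 3.61e-10), and KCNQ and WtPE hearts averaged 12.39 and 12.44. Elovl7, a fatty acid elongase, and Arpc1, a subunit of the actin-nucleating Arp2/3 complex, were of this kind too, with differences of 5.30 and 5.23, KCNQ means of 8.40 and 9.10 and WtPE means of 8.40 and 8.84. CG9616 (5.68), the cytochrome P450 Cyp6a2 (5.52) and CG33093 (5.05) lay between: on average KCNQ and WtPE hearts were below sei and above WtCS hearts, as with Cyp6a2, at 7.94 on average in sei, 2.42 in WtCS, 6.53 in KCNQ and 5.77 in WtPE hearts.

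The largest fall was that of CG4259, at 1.31, 1.97, 1.68, 2.41 and 1.69 in sei replicates, against 10.13, 9.86, 9.43, 9.31 and 9.04 in WtCS replicates. The difference was -7.74, or 214-fold (SE 0.27, adjusted p = 4.78e-11), and KCNQ and WtPE hearts, at 9.09 and 9.38, were at the level of WtCS. Zip102B, a metal transporter of the ZIP family, read 2.30, 2.28, 2.31, 4.24 and 4.13 in sei replicates, against 8.68, 8.96, 7.57, 7.92 and 7.54 in WtCS replicates (-5.08, adjusted p = 8.52e-07). Drsl4, a peptide related to the antifungal peptide drosomycin, read 4.69, 5.29, 4.91, 5.37 and 5.62 in sei replicates, against 10.97, 10.33, 8.91, 9.88 and 9.81 in WtCS replicates (-4.80, adjusted p = 1.76e-07). For these 3 genes, and also for lncRNA:CR30121 (-4.55), CG15239 (-4.49) and the cytochrome P450 Cyp9b1 (-3.95), sei hearts were below each of the 11 other arrays. WtCS hearts were also above WtPE hearts on average for lncRNA:CR30121 (5.98 against 3.92) and CG15239 (8.35 against 6.42). KCNQ hearts averaged 5.69 and 6.83 for these 2 genes.

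In 3 of the 10 largest falls KCNQ and WtPE hearts were on average nearer to sei than to WtCS hearts. CG11854 averaged 2.49 in sei and 8.40 in WtCS hearts, and also 2.06 in KCNQ and 3.19 in WtPE hearts, with a difference of -5.91 (adjusted p = 1.88e-06). CG31760 fell by 5.08 in the same manner. MtnB, a metallothionein that binds copper and cadmium, read 7.59, 8.38, 6.97, 7.19 and 7.31 in sei replicates, against 11.43, 11.59, 11.74, 10.67 and 10.99 in WtCS replicates (-3.80, adjusted p = 3.43e-06), with KCNQ at 8.07 and WtPE at 9.33.

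**Figure D2:**
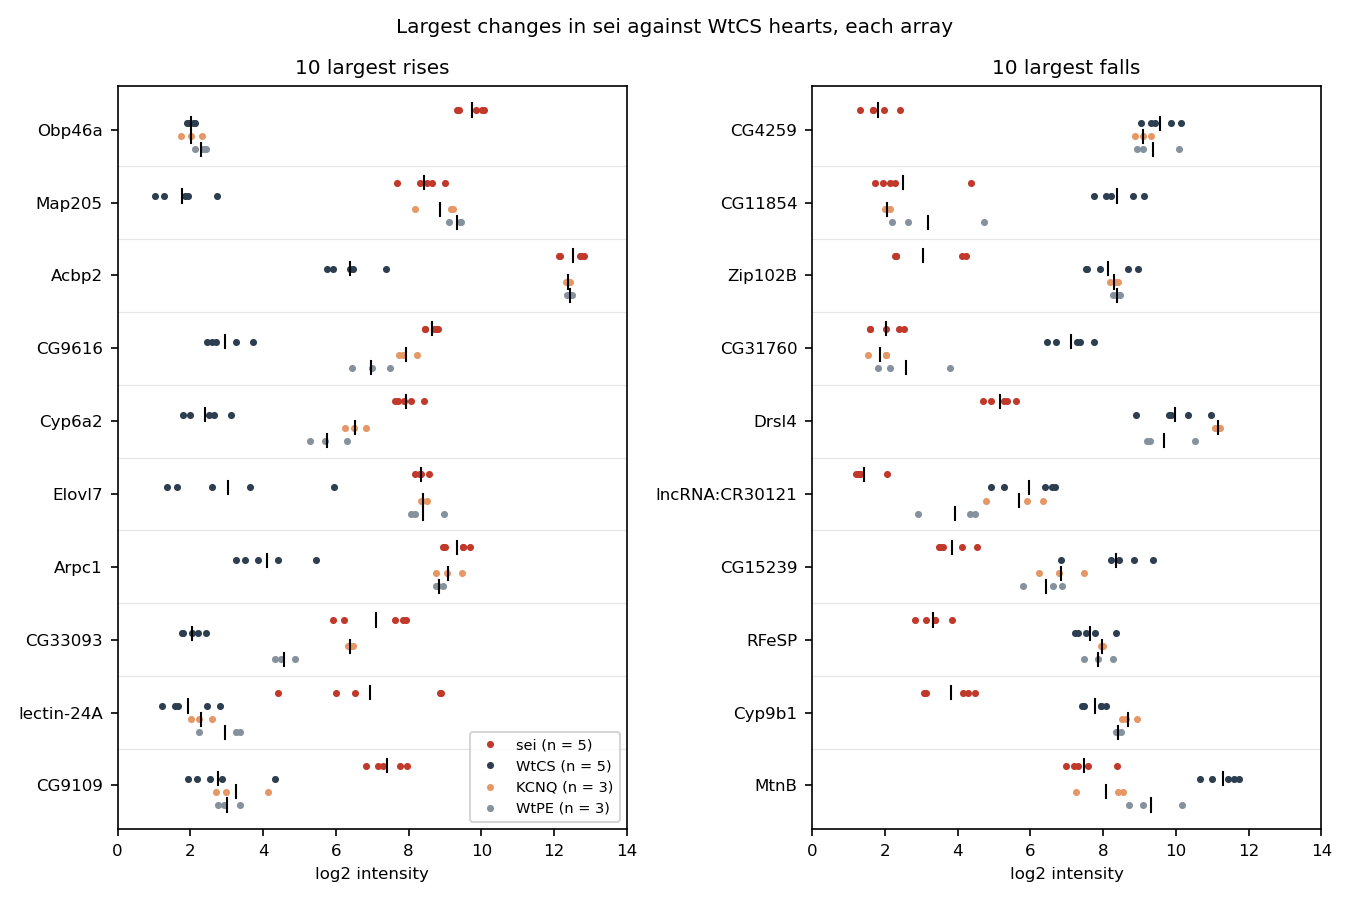
Log2 intensity (horizontal axis) of the 10 genes with the largest rises (left) and the 10 with the largest falls (right) in sei against WtCS hearts; each point is an array, in the order sei, WtCS, KCNQ and WtPE from top to bottom within a gene, and vertical bars mark group means. Obp46a, CG9109 and CG4259 stand apart in sei hearts only, whereas Map205 (7.68 to 9.01 in sei) and Acbp2 are low in WtCS hearts only.

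RFeSP, the Rieske iron-sulfur protein of respiratory complex III, was in the list of falls by 1 of its 2 probesets. That probeset read 3.13, 3.39, 3.39, 3.84 and 2.83 in sei replicates, against 7.77, 7.54, 8.36, 7.32 and 7.22 in WtCS replicates (-4.32, adjusted p = 1.21e-08). The brighter probeset of the gene, at 9.68 to 11.28 in sei and 9.52 to 10.78 in WtCS hearts, had a difference of 0.82 and was not called (adjusted p = 0.129). Disagreement of this kind was common: of 1094 genes with several probesets, 165 had only 1 of them called, 20 had every probeset called the same way, and 3 genes (Pxn, hts and prage, named here because they are few) had calls in both directions. CTCF, an insulator-binding protein looked at after its values were seen, rose by 4.24 and 4.59 on 2 probesets and had 0.97 on its brightest, which was not called (adjusted p = 0.0901).

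Other genes that stood apart in sei hearts were picked after their values were seen, from the set outside the range of all 11 other arrays. Psa, a puromycin-sensitive aminopeptidase, was even between arrays, at 10.61, 10.73, 10.69, 10.53 and 10.59 in sei replicates, against 8.54, 8.63, 8.92, 9.12 and 9.06 in WtCS replicates (1.77, adjusted p = 1.3e-05). Daao2, a D-amino acid oxidase, rose by 2.87, Mthfs, an enzyme of folate metabolism, by 2.14, and Amacr, a racemase needed to degrade branched fatty acids, by 0.94. The spread within either group was small for Amacr: 9.63 to 9.85 in sei hearts and 8.72 to 8.87 in WtCS hearts. Downward, T3dh, an alcohol dehydrogenase of mitochondria, changed by -3.29, Sema5c, a semaphorin, by -2.82, MCTS1, a translation re-initiation factor, by -2.43, and Naprt, which makes the precursor of NAD from nicotinic acid, by -2.14. The nuclear proteins Jarid2, disco and jumu changed by -3.79, -3.16 and -2.85. Cbl, a ubiquitin ligase that attenuates receptor tyrosine kinases, had -3.15 on 1 probeset and -0.97 on another.

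Of 10 genes of the thick filament and its titin-like proteins, 2 were called lower and none higher, with a median of -0.38. Their summed intensity was 7890 to 9810 in sei hearts and 9910 to 12900 in WtCS hearts. KCNQ hearts, at 9070 to 9470, lay within the sei range, and WtPE hearts, at 9020 to 10500, overlapped both groups. Of 9 thin filament genes none was called (1 had an unadjusted p under 0.05, and a t-test called none), and of 19 genes of the Z-disc and of filament assembly 1 was called in each direction. Prm, paramyosin of the thick filament core, read 8.71, 8.89, 8.31, 9.17 and 9.07 in sei replicates, against 9.59, 9.76, 9.10, 9.84 and 9.13 in WtCS replicates, so that the groups overlapped at -0.66 (adjusted p = 0.0453). Mf, myofilin, had -0.48 (adjusted p = 0.0456), and with array run as a covariate the adjusted p-values became 0.194 for Prm and 0.151 for Mf. Mlc2, the regulatory light chain of myosin, averaged 9.74 in sei and 9.96 in WtCS hearts (-0.22, adjusted p = 0.559). Myosin heavy chain itself is not reported here, since no probeset carries its symbol alone, and neither are Act57B, Mef2, tin and KCNQ.

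Formins, which build actin filaments, moved in both directions. dia read 7.11, 6.98, 7.02, 6.95 and 6.54 in sei replicates, against 6.26, 6.42, 4.26, 5.42 and 4.37 in WtCS replicates (1.57, adjusted p = 0.0106), without overlap, and KCNQ and WtPE hearts were higher still at 7.67 and 7.50. DAAM, which in flies assembles sarcomeric actin, read 6.90, 7.71, 6.91, 7.23 and 7.63 in sei replicates, against 8.88, 9.14, 7.76, 8.22 and 8.59 in WtCS replicates (-1.24, adjusted p = 0.0166), and its adjusted p was 0.137 with run as a covariate.

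In the attachment of muscle to matrix, 2 of 17 genes of integrin adhesion were called higher and 4 lower, a share of 35.3% against 14.5% of all genes. The 4 lower ones were LanA, the laminin alpha chain (-1.73), the integrin alpha subunits scb (-1.47) and mew (-0.82), and the integrin beta subunit mys (-0.94). LanA read 7.58, 8.25, 7.62, 7.29 and 7.74 in sei replicates, against 9.18, 8.84, 9.64, 9.88 and 9.60 in WtCS replicates, without overlap (adjusted p = 0.000424), but KCNQ and WtPE hearts were lower still at 6.55 and 7.21. Pax, paxillin, an adaptor of the adhesion complex, rose in sei hearts alone, to 8.48, 8.69, 8.48, 8.39 and 8.01, against 6.94, 7.09, 7.70, 6.45 and 6.94 in WtCS replicates (1.39, adjusted p = 0.000558). wb, the other laminin alpha chain, had 3.65 on its brightest probeset and 0.57 and 0.15 on 2 others, and KCNQ and WtPE hearts were above both at 8.81 and 8.91. Run mattered for scb and mys, whose adjusted p-values with run as a covariate were 0.084 and 0.187. Of 11 genes of the cardiac extracellular matrix, Ppn (papilin) alone was called, at 10.50 to 10.79 in sei hearts and 11.04 to 11.75 in WtCS hearts (-0.79, adjusted p = 0.00764). KCNQ and WtPE hearts, at 10.67 and 10.80, were near the sei mean of 10.66, and WtCS hearts averaged 11.44.

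Among 15 cardiac transcription factors only pnr was called. This GATA factor, which acts with tin in specifying heart cells, read 5.80, 6.39, 6.10, 5.78 and 6.00 in sei replicates, against 7.62, 7.45, 6.83, 7.04 and 6.82 in WtCS replicates, a difference of -1.14 (SE 0.19, adjusted p = 0.00112) that remained called with run as a covariate. The groups did not overlap, although KCNQ and WtPE hearts, at 6.17 and 6.41, were nearer to sei.

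Of 19 potassium channel genes 1 was called higher and 3 lower, among the lower ones sei itself. SK, a small-conductance channel opened by calcium, read 4.19, 3.96, 3.00, 5.47 and 4.64 in sei replicates, against 6.42, 5.56, 4.97, 7.86 and 7.49 in WtCS replicates (-2.21, adjusted p = 0.025). The ranges overlap, but within run A and within run C every sei array was below its WtCS arrays. KCNQ and WtPE hearts averaged 3.63 and 5.07 on this probeset, with 4.25 in sei and 6.46 in WtCS hearts. The other 3 probesets of SK gave 0.06, -0.93 and 0.07. Shal, which carries a fast transient potassium current, had -1.06 (adjusted p = 0.0343, and 0.126 with run as a covariate). sand, a potassium channel of the leak type, rose by 1.57, to 6.98, 7.09, 7.33, 5.41 and 5.70 in sei replicates, against 5.13, 5.21, 5.32, 5.08 and 3.94 in WtCS replicates (adjusted p = 0.0151).

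Of 19 genes of calcium and sodium currents and of gap junctions 2 were called lower, with a median of -0.32 against -0.30 for the potassium channels: stj, an auxiliary calcium channel subunit (-1.19), and NaCP60E, a channel of the sodium and calcium channel family (-1.39, adjusted p = 0.202 with run as a covariate). Both are dim, and stj was at 1.31 to 2.19 in sei hearts and 2.39 to 3.41 in WtCS hearts. KCNQ and WtPE hearts, at 1.72 and 1.66, were at the sei level of stj. For NaCP60E they averaged 4.39 and 4.79, between sei (3.56) and WtCS (4.95) hearts. In the handling of stored calcium 2 of 14 genes were called, both catalytic subunits of calcineurin, the calcium-activated phosphatase. CanA-14F read 3.01, 2.85, 3.48, 3.95 and 3.41 in sei replicates, against 6.65, 6.19, 6.29, 7.28 and 6.72 in WtCS replicates (-3.29, SE 0.26, adjusted p = 7.32e-07), below KCNQ at 5.50 and WtPE at 5.66, while its second probeset gave -0.03. CanA1 had -1.17, with overlap, and averaged 3.28 in sei, 4.45 in WtCS, 3.47 in KCNQ and 3.82 in WtPE hearts. SERCA, the calcium pump of the sarcoplasmic reticulum, averaged 9.99 in sei and 10.29 in WtCS hearts and was not called (-0.31, adjusted p = 0.365). Of 5 subunits of the sodium pump, the beta subunits nrv3 and nrv1 were lower by -2.95 and -0.88, and CG11703 was higher by 0.93 (adjusted p = 0.203 with run as a covariate). nrv3, typical of neurons, read 5.53, 6.15, 5.38, 7.06 and 8.01 in sei replicates, against 9.62, 9.08, 9.0, 9.76 and 9.43 in WtCS replicates.

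**Figure D3:**
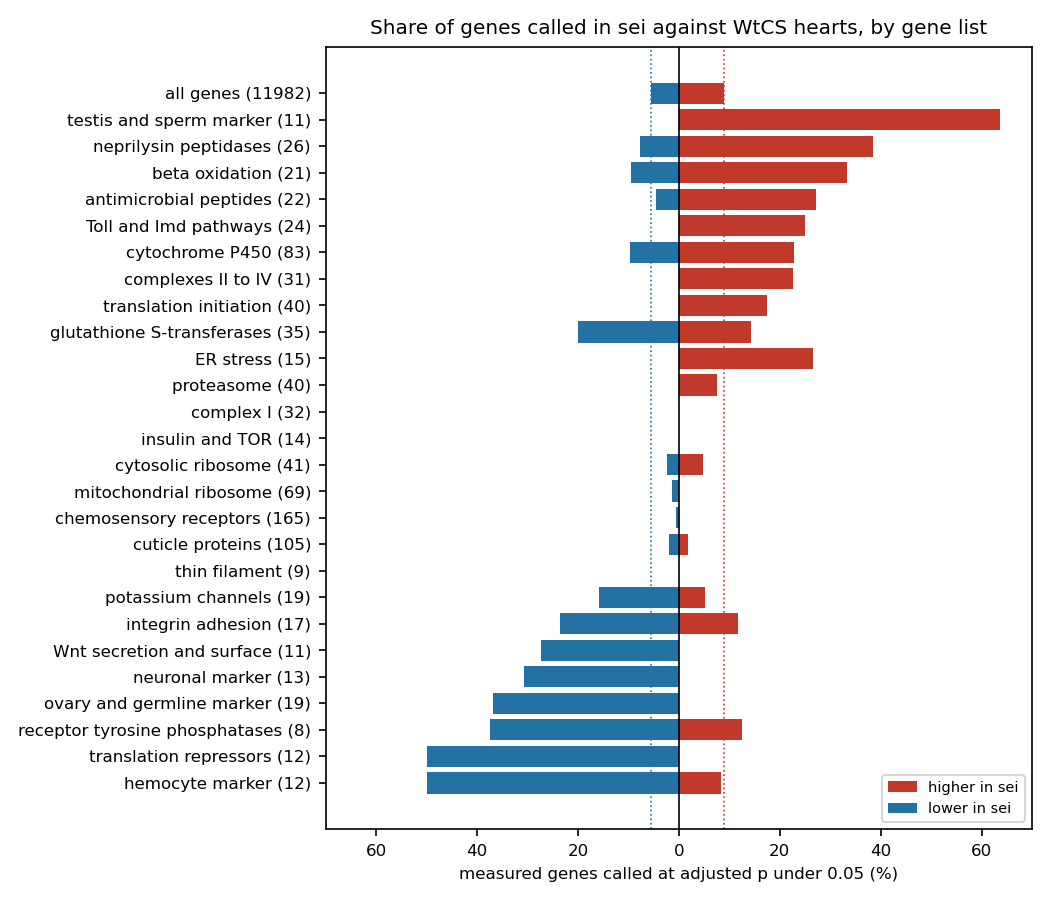
Share of the measured genes of 26 lists (number measured in parentheses) that were called higher (red, to the right) or lower (blue, to the left) in sei against WtCS hearts, in percent, with the shares of all 11982 genes on top and as dotted lines (8.89 and 5.6%). Sperm markers, neprilysins and beta oxidation have the largest shares on the right among the lists drawn, and hemocyte markers, translation repressors and receptor tyrosine phosphatases on the left.

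Wnt proteins are acylated and escorted to the cell surface before they can signal. Of 11 measured genes of Wnt secretion and of the cell surface 3 were called, all lower, and in each of the 3 the sei arrays were below all 11 others. por (porcupine), the acyltransferase that attaches the lipid to Wnt, read 6.37, 6.14, 5.93, 6.84 and 6.68 in sei replicates, against 8.87, 8.52, 8.10, 8.53 and 8.29 in WtCS replicates. Its fall of 2.07 (SE 0.19, adjusted p = 4.05e-06) was 4.2-fold, and KCNQ and WtPE hearts averaged 8.47 and 8.86. wls (wntless), which carries Wnt through the secretory route, read 6.62, 6.41, 6.53, 7.15 and 6.87 in sei replicates, against 8.21, 8.42, 7.92, 7.72 and 7.97 in WtCS replicates (-1.33, adjusted p = 0.00015). dlp, a glypican of the cell surface, read 4.15, 3.95, 2.83, 3.67 and 3.52 in sei replicates, against 4.88, 5.74, 5.20, 5.10 and 6.16 in WtCS replicates (-1.80, adjusted p = 0.000994). The median of the 11 genes was -0.12, and the other 8 were not called.

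Downstream of the receptor 2 of 12 genes were called, both lower. gish, a casein kinase, read 8.0, 8.05, 8.0, 8.58 and 8.38 in sei replicates, against 10.09, 9.88, 9.27, 10.33 and 10.19 in WtCS replicates (-1.75, adjusted p = 9.25e-05), below all other arrays. CtBP, a corepressor that takes part in Wnt target gene control, had -0.66 (adjusted p = 0.0307), with 6.78 to 7.48 in sei hearts and 7.70 to 8.07 in WtCS hearts, whereas KCNQ and WtPE hearts, at 7.33 and 7.40, were at the sei level. The second CtBP probeset gave 0.10. In planar polarity signaling 1 of 11 genes was called, dgo (diego, 1.07), and its groups overlapped. Apc, Apc2 and pygo of the same pathway are not reported here.

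Other signaling lists held single changes. The BMP ligands dpp and gbb moved apart, dpp by -0.95 and gbb by 0.71, and their type II receptor wit rose by 0.94 (adjusted p = 0.0128), to 8.75, 8.86, 8.77, 9.56 and 9.40 in sei replicates, against 8.15, 8.45, 7.68, 8.43 and 7.93 in WtCS replicates. neur, a ubiquitin ligase of Notch signaling, had -1.19. With run as a covariate only wit among these 4 stayed past the threshold (adjusted p = 0.00169). KCNQ and WtPE hearts averaged 9.41 and 8.88 for wit, with 9.07 in sei and 8.13 in WtCS hearts. For gbb the sei arrays were above all 11 others. Of 8 receptor tyrosine phosphatases 3 were lower and 1 higher. IA-2 had -2.35, Ptp99A -2.04 and Lar -0.91, and Ptp52F rose by 1.39, to 7.62, 8.07, 8.17, 8.48 and 8.21 in sei replicates, against 6.55, 5.94, 6.98, 6.99 and 7.12 in WtCS replicates. IA-2 averaged 6.79 in sei, 9.14 in WtCS, 7.30 in KCNQ and 7.74 in WtPE hearts. For Ptp99A the means were 4.86, 6.90, 5.38 and 5.98 in the same order. In none of the 8 were the sei arrays below all 11 others, while for Ptp52F they were above all 11. For IA-2 and Ptp99A the other probesets lay between -0.35 and 0.36. No gene of 14 in the insulin and TOR pathway was called, where 1 lower gene had an unadjusted p under 0.05. Nor was any of 10 genes of JAK/STAT signaling, where 1 higher and 2 lower genes had one. A t-test called none in either. cry (cryptochrome), the light sensor of the clock, rose by 1.46 (adjusted p = 0.0016), and the other 8 clock genes were not called.

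Genes of energy metabolism divided by function. In the respiratory chain and ATP synthase the calls fell on a particular kind of gene. Many subunits have a second copy, named after the main one with an added L, T or R, several of which are known to be used in the male germline. Of 36 such copies in complexes I to IV, ATP synthase and the proteasome 12 were called higher and none lower, whereas of 81 other subunits of these complexes none was called (an unadjusted p under 0.05 was reached by 13 higher and 3 lower ones, and a t-test called 2). The copies are dim: 34 of 36 had a mean under 5. COX4L, of cytochrome c oxidase, read 6.22, 5.93, 4.44, 5.09 and 3.69 in sei replicates, against 1.99, 2.43, 2.50, 2.10 and 2.41 in WtCS replicates (2.79, adjusted p = 0.000342). SdhCL, of complex II, rose by 1.92, ATPsynGL by 2.45, COX7AL by 2.12 and Prosbeta4R1, of the proteasome, by 1.29. With run as a covariate 7 of the 36 were called, and a t-test called 2.

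The main subunits had a median difference of 0.21. Their summed intensity was 197000, 196000, 193000, 136000 and 147000 in sei replicates, against 154000, 158000, 187000, 148000 and 148000 in WtCS replicates. The 4 arrays of run C, sei replicates 1, 2 and 3 and WtCS replicate 3, were the 4 highest, and sei and WtCS arrays within a run were close together. With run as a covariate 1 of the 81 was called higher and 2 lower. The 15 genes of the tricarboxylic acid cycle had no call (an unadjusted p under 0.05 was reached by 4 higher genes and 1 lower gene, and a t-test called none) and a median of 0.40, which was 0.14 with run as a covariate.

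Beta oxidation, the breakdown of fatty acids, had 7 of 21 genes called higher and 2 lower, 42.9% in all. yip2, a thiolase, was even: 11.66, 11.74, 11.66, 11.71 and 11.61 in sei replicates, against 11.29, 11.27, 11.13, 11.01 and 11.20 in WtCS replicates, a rise of 0.50 (SE 0.12, adjusted p = 0.013) above all 11 other arrays. Echs1, an enoyl-CoA hydratase, rose by 1.63, with 9.95 to 11.25 in sei hearts and WtCS replicate 3, at 10.55, inside that range. colt, the mitochondrial carnitine carrier, rose by 1.32, and CPT2, carnitine palmitoyltransferase, by 0.64. In the other direction CG4594, an enoyl-CoA isomerase, read 4.29, 5.40, 4.85, 5.25 and 3.10 in sei replicates, against 7.48, 8.12, 6.60, 6.04 and 5.88 in WtCS replicates (-2.24), and KCNQ and WtPE hearts were higher than either, at 8.92 and 8.74. CG17544, an acyl-CoA oxidase, had -1.76. A t-test called 1 gene of the list higher and 1 lower.

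Of 18 genes of lipid storage 4 were higher and 1 lower, and of 17 genes of lipid transport 4 were higher and 1 lower. AkhR, the receptor of the adipokinetic hormone that mobilizes fat, read 10.47, 10.52, 10.17, 9.59 and 9.60 in sei replicates, against 8.26, 8.37, 8.59, 8.29 and 8.37 in WtCS replicates (1.70, SE 0.19, adjusted p = 3.02e-05), above KCNQ at 9.24 and WtPE at 9.40. A second AkhR probeset gave -0.59. Lip4, a lipase, rose by 1.07, from 9.83 on average in WtCS to 10.90 in sei hearts. KCNQ and WtPE hearts, at 10.91 and 10.79, were at the sei level of Lip4. Snmp1, a CD36-like membrane protein, rose by 2.63, to 7.52, 5.98, 7.29, 8.56 and 8.69 in sei replicates, against 4.96, 4.81, 5.38, 5.23 and 4.52 in WtCS replicates. Its sei arrays were above all 11 others. Apoltp, a lipid transfer protein of hemolymph, and Mtp, which loads lipid onto lipoproteins inside the cell, rose by 1.08 and 1.09, while Npc2a and Npc2g, both of the sterol-binding Npc2 family, moved in opposite directions (-0.62 and 0.86). Npc2a averaged 10.80 in sei, 11.42 in WtCS, 10.69 in KCNQ and 10.71 in WtPE hearts. For Npc2g the sei arrays were above all 11 others. Dgat2, which makes triglyceride, had -1.47, with overlap, and an adjusted p of 0.184 with run as a covariate. Of 20 genes of fatty acid synthesis 2 rose (Acbp2 and Elovl7) and 3 fell, among them the desaturase Fad2, at 11.07 to 11.56 in sei hearts and 11.75 to 12.42 in WtCS hearts (-0.86).

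In sugar metabolism the sugar transporter CG6484 rose in sei hearts alone, to 10.37, 10.05, 10.28, 10.03 and 9.91, against 7.94, 8.0, 9.09, 8.38 and 8.65 in WtCS replicates (1.72, adjusted p = 0.000112). Of 15 glycolytic genes 3 were called higher, Hex-C, the fat body hexokinase (1.96), Hex-t2 (1.92) and Gpdh2 (0.94). Hex-C depended on the array: WtCS replicate 3 read 11.08, inside the sei range of 10.21 to 11.40, and the other WtCS replicates 7.67 to 9.15. Within run C its difference was 0.27. Breakdown of amino acids had 4 of 16 genes lower and 1 higher. The lower ones included Faa and hgo, enzymes of tyrosine breakdown, at -1.62 and -1.11, and slgA and P5CDh1, both enzymes of proline breakdown, at -1.25 and -0.68. Faa read 6.21, 6.31, 6.65, 5.57 and 6.13 in sei replicates, against 7.57, 7.50, 8.05, 8.01 and 7.83 in WtCS replicates, and KCNQ and WtPE hearts averaged 6.76 and 6.06. Oat, ornithine aminotransferase, rose by 1.01, but within run C its difference was -0.00.

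In protein synthesis, of 41 genes of the cytosolic ribosome 2 were called higher and 1 lower, and of 69 of the mitochondrial ribosome 1 was lower. The 2 higher ones, RpL10Aa (2.42) and RpL22-like (0.89), are dim copies of other subunits. RpL27 was the lower one, at 9.99, 9.83, 9.94, 11.73 and 11.89 in sei replicates, against 12.60, 12.65, 12.25, 12.53 and 12.53 in WtCS replicates (-1.84, adjusted p = 0.00346), with the sei arrays of run C furthest down. Of 40 translation initiation genes 7 rose and none fell. Of these 7, 6 are additional copies of other initiation factors, eIF4E3, eIF4E4, eIF4E5, eIF3f2, eIF3g2 and eIF4H2, with rises of 0.94 to 2.69, and the other is eIF2Bdelta (1.19).

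Translation repressors, RNA-binding proteins best known for localizing and silencing maternal messages, had 6 of 12 genes called lower and none higher, with a median of -1.10. They were BicC (-2.80), brat (-2.58), orb (-2.46), heph (-1.95), pum (-1.77) and smg (-1.43). A t-test called 1 of the 12, and run A alone none. Summed intensity of the 12 was 2300 to 3360 in sei hearts and 4390 to 7260 in WtCS hearts. It was 2720 to 3320 in KCNQ and 2810 to 4140 in WtPE hearts, so that WtCS was the group that stood apart. In none of the 12 were the sei arrays below all 11 others. brat read 3.07, 3.30, 4.19, 5.73 and 3.61 in sei replicates, against 6.39, 6.74, 5.82, 6.11 and 7.71 in WtCS replicates. BicC and orb are also among the ovary markers described below. In the endoplasmic reticulum 4 of 15 stress genes rose and none fell: Manf, a secreted stress factor (0.88), Ero1L, the oxidase of disulfide formation (0.78), CaBP1 (0.65) and ERp60 (0.44), both disulfide isomerases. Manf read 11.25, 11.24, 11.47, 11.20 and 11.07 in sei replicates, against 10.14, 10.10, 10.72, 10.39 and 10.47 in WtCS replicates (adjusted p = 0.00249), and KCNQ hearts were at 11.23. Of 14 heat shock protein genes 2 rose, the chaperonins Hsp60B (2.33) and Hsp60C (2.28), while Hsp26 averaged 8.77 in sei and 9.24 in WtCS hearts and was not called (-0.47, adjusted p = 0.344). Of 31 subunits of the vacuolar proton pump 4 were higher and 2 lower. The 4 were Vha68-3 (1.67), VhaM9.7-d (1.13), Vha100-3 (1.11) and Vha14-2 (0.96), and of these VhaM9.7-d alone was also called with run as a covariate (adjusted p = 0.0104). Vha100-1 fell below all other arrays, at 7.88, 8.11, 8.19, 8.11 and 7.98 in sei replicates, against 9.27, 9.37, 9.88, 9.48 and 9.40 in WtCS replicates (-1.43, adjusted p = 1.13e-05).

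Cytochrome P450 genes and glutathione S-transferases, 2 families of detoxification enzymes, were called more often than genes in all, and in both directions. Of 83 cytochrome P450 genes 19 were called higher and 8 lower, 32.5% in all, with differences between -3.95 (Cyp9b1) and 5.52 (Cyp6a2) and a median of 0.06. Sei arrays were above all 11 others in 7 of the 83 and below in 6. Cyp4p1, chosen after its values were seen, read 10.26, 10.02, 10.21, 11.25 and 11.17 in sei replicates, against 7.26, 6.63, 7.01, 6.51 and 5.77 in WtCS replicates (3.94, adjusted p = 6.64e-07), with KCNQ at 6.83 and WtPE at 6.52. Its relative Cyp4p2 had -2.54. Cyp6a20, a P450 tied to aggression in male flies, rose by 3.31, and Cyp6a8 rose by 2.54. Cyp309a2 (4.18) was low in WtCS hearts only. Cyp28d1 and Cyp28d2 fell by 1.94 and 1.14.

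Glutathione S-transferases, which couple glutathione to toxic compounds, had 5 of 35 genes higher and 7 lower. GstE1 read 12.10, 11.92, 12.06, 11.26 and 11.07 in sei replicates, against 8.82, 9.15, 9.77, 8.99 and 8.96 in WtCS replicates (2.54, adjusted p = 4.35e-06), above all 11 other arrays. GstE7 of the same family had -2.71, GstD2 -2.98 and GstD3 -2.38, each below all 11 other arrays. Of 35 UDP-glycosyltransferases 2 were higher and 3 lower, near the share of all genes. Of 15 antioxidant enzymes 3 were lower and none higher. Prx6c, a peroxiredoxin, read 5.03, 4.60, 4.28, 4.36 and 5.16 in sei replicates, against 8.05, 7.79, 8.42, 7.59 and 7.78 in WtCS replicates (-3.24, adjusted p = 1.42e-07), but KCNQ and WtPE hearts were as low, at 4.70 and 4.81. Keap1, the inhibitor of the antioxidant factor cnc, had -0.98 over all arrays and 0.22 within run C. Of the metal genes, MtnD, another metallothionein, fell with MtnB, at 10.06 to 10.61 in sei hearts and 11.60 to 11.75 in WtCS hearts (-1.42), and Tsf1, transferrin, rose by 0.75.

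Among immune genes more were higher than lower. Of 22 antimicrobial and related peptides 6 rose and 1, Drsl4, fell, and the median was 0.54. edin rose by 3.13 and CecB, a cecropin, by 1.99. BomS5, a bomanin peptide of the Toll response, read 10.62, 10.77, 10.91, 11.13 and 11.13 in sei replicates, against 10.12, 9.81, 8.92, 9.72 and 9.79 in WtCS replicates (1.24, adjusted p = 0.00176), and KCNQ hearts were at the sei level. Of 24 genes of the Toll and Imd pathways 6 rose and none fell. SPE, the protease that cleaves the Toll ligand, read 11.35, 11.22, 11.47, 10.32 and 9.95 in sei replicates, against 7.92, 8.32, 10.43, 8.19 and 8.41 in WtCS replicates (2.21, adjusted p = 0.00275). WtCS replicate 3 overlapped the sei range, and within run C, where it is the control, the difference was 0.92. GNBP3, a receptor for fungal glucans, rose by 0.95 in sei hearts alone. With run as a covariate 4 of the 24 were called higher, and a t-test called 1.

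Hemocytes, the circulating and heart-attached blood cells of the fly, were represented by 12 markers. Of these 6 were called lower and 1 higher, 58.3% against 14.5% of all genes, with a median of -1.04. Sr-CI, a scavenger receptor that binds bacteria, read 8.25, 8.39, 8.28, 9.07 and 9.13 in sei replicates, against 11.15, 10.59, 11.15, 11.64 and 11.47 in WtCS replicates (-2.58, SE 0.23, adjusted p = 2.57e-06). It was below all 11 other arrays, as was He (Hemese), a surface protein of hemocytes, at 6.27, 6.29, 6.69, 6.25 and 5.22 in sei replicates, against 9.90, 9.49, 8.06, 8.01 and 7.89 in WtCS replicates (-2.53, adjusted p = 0.000568). Pxn (peroxidasin, -2.50), the phagocytosis receptor eater (-1.67), NimC2 (-1.57) and Hml (hemolectin, -1.29) were the other 4.

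For Pxn, eater and Hml WtCS had the highest mean of the 4 genotypes. WtPE hearts lay between sei and WtCS hearts for Pxn (7.53, with 6.37 in sei and 8.87 in WtCS hearts) and eater (8.91, with 8.05 in sei and 9.72 in WtCS hearts). Hml was at 9.23 on average in sei, 10.52 in WtCS, 8.61 in KCNQ and 9.05 in WtPE hearts. Pxn had 1.11 on its second probeset, called in the other direction. NimC1, a phagocytosis receptor of the same cells, rose by 3.29, to 10.15, 10.25, 10.38, 10.11 and 10.30 in sei replicates, against 7.54, 6.56, 7.58, 6.86 and 6.20 in WtCS replicates, and KCNQ and WtPE hearts, at 10.20 and 10.43, were at the sei level. Summed intensity over the 12 markers was 5140 to 6550 in sei hearts and 7770 to 10800 in WtCS hearts, without overlap, and 5760 to 7010 in KCNQ and 7710 to 7960 in WtPE hearts.

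**Figure D4:**
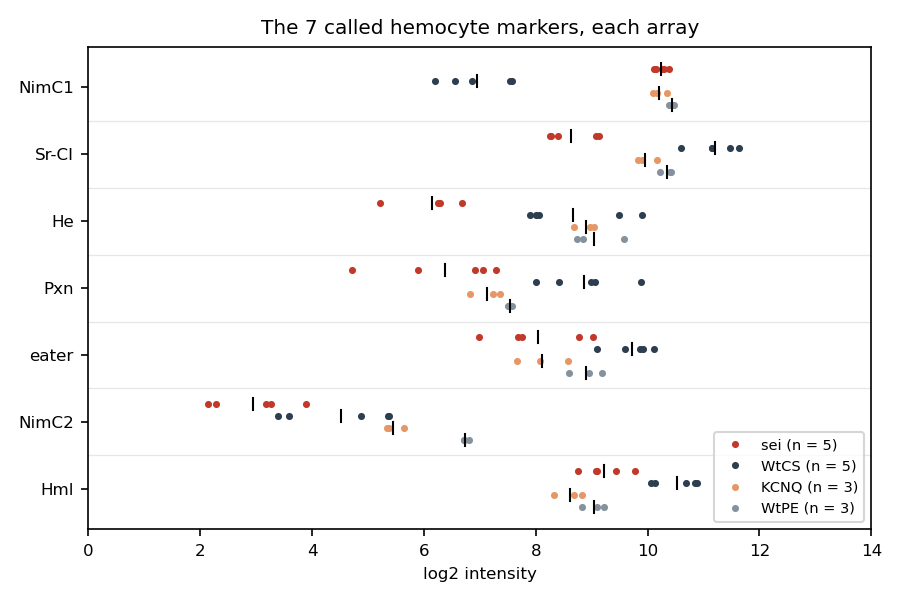
Log2 intensity (horizontal axis) of the 7 called hemocyte markers; each point is an array, in the order sei, WtCS, KCNQ and WtPE from top to bottom within a gene, and vertical bars mark group means. Sr-CI and He are lowest in sei hearts, and NimC1 is low in WtCS hearts only (6.20 to 7.58).

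The neprilysins, membrane peptidases that degrade signaling peptides, had 10 of 26 genes higher and 2 lower, with a median of 0.89. Nepl12 read 7.98, 8.04, 8.46, 8.67 and 8.55 in sei replicates, against 6.43, 6.09, 7.14, 5.70 and 5.92 in WtCS replicates (2.08, adjusted p = 6.27e-05), and Nepl15 rose by 1.54, both above all 11 other arrays. The 10 had rises of 1.02 to 2.08. The 2 that fell, Nep1 and Nep3, had -0.99 and -1.27, and with run as a covariate neither passed (adjusted p = 0.208 and 0.126). A t-test called 2 of the list higher.

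Of 4 aquaporins, channels for water, 2 were lower. Drip read 4.31, 3.85, 5.28, 5.61 and 4.67 in sei replicates, against 8.08, 8.45, 7.19, 7.61 and 6.79 in WtCS replicates (-2.88, adjusted p = 6.3e-05), and Prip had -0.95. KCNQ and WtPE hearts averaged 5.14 and 5.59 for Drip, nearer to sei (4.74) than to WtCS (7.63) hearts. For Prip they averaged 8.76 and 9.11, with 8.70 in sei and 9.65 in WtCS hearts. Of 15 methuselah-like receptors mthl8 rose by 3.74, to 6.41, 6.68, 6.50, 5.73 and 5.21 in sei replicates, against 2.45, 2.21, 2.05, 2.98 and 2.15 in WtCS replicates. KCNQ hearts averaged 6.69 and WtPE hearts 2.54 for mthl8. Among 47 odorant-binding proteins 4 rose and 4 fell, among the falls Obp99b, which averaged 8.78 in sei, 11.54 in WtCS, 7.61 in KCNQ and 6.52 in WtPE hearts (-2.76). Chemosensory receptors, of which 1 of 165 was called (Or43b, -1.07), and cuticle proteins, with 2 of 105 higher and 2 lower, were called less often than genes in all, and most of both lists are dim (163 and 97 genes with a mean under 5).

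egr (eiger), the tumor necrosis factor of the fly, read 8.57, 8.83, 7.82, 7.92 and 8.23 in sei replicates, against 9.47 as the lowest, 9.68 as the median and 10.02 as the highest of the WtCS replicates (-1.49, adjusted p = 0.000144), and its second probeset gave -1.93. Of the autophagy genes Atg9 (1.01) and Atg1 (0.74) rose and Atg5 (-0.88) fell. Of 20 chromatin remodelers 4 fell and none rose: E(bx) (-1.80), kis (-0.96), Su(z)12 (-0.74) and osa (-0.69). A t-test and run A alone called none of the 20, and with run as a covariate 3 were lower. In none were the sei arrays below all 11 others. osa averaged 5.65 in sei, 6.34 in WtCS, 5.67 in KCNQ and 5.69 in WtPE hearts, and E(bx) 3.92, 5.72, 4.80 and 4.90. With run as a covariate osa was not called (adjusted p = 0.104). Of 15 genes of the cell cycle and replication 2, CycB (-2.34) and CycB3 (-1.89), were called lower, and the median was -0.73.

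Markers of tissues other than heart differed between the groups. Of 11 testis and sperm markers 7 were called higher and none lower, and the median was 2.14. A t-test called none of the 11, run A alone 4 and run C alone 4. Mst87F, a protein of the sperm tail, read 9.83, 9.0, 8.62, 9.04 and 7.46 in sei replicates, against 7.20, 7.39, 5.73, 3.78 and 4.02 in WtCS replicates (3.17, adjusted p = 0.0048), and KCNQ and WtPE hearts averaged 7.53 and 6.99. betaTub85D, the beta tubulin of sperm, rose by 2.75. Summed intensity of the 11 was 4400, 2430, 1800, 2920 and 925 in sei replicates, against 1240, 1000, 331, 119 and 106 in WtCS replicates, 988 to 2330 in KCNQ and 1060 to 1270 in WtPE hearts. Sei and WtCS ranges thus overlap, sei replicate 5 being below the 2 arrays of run B. Regulators of male meiosis, aly (0.05) and comr (0.01), were not called.

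The sum over all 36 suffixed copies described above was 3840, 3220, 2690, 4130 and 4120 in sei replicates, against 4800, 4250, 3140, 4110 and 3970 in WtCS replicates, which overlap. Such a sum follows the few bright copies, since 34 of the 36 are dim. The median level of the 36 was 4.05, 3.56, 2.86, 3.18 and 2.89 in sei replicates, against 2.49, 2.35, 2.17, 2.57 and 2.41 in WtCS replicates, without overlap. It was 2.39 to 2.60 in KCNQ and 2.25 to 2.60 in WtPE hearts. The 12 copies that were called summed to 481, 380, 170, 312 and 112 in sei replicates, against 83.1, 91.9, 52.1, 61.8 and 67.1 in WtCS replicates, an order that their choice by the call fixes. Within sei hearts this sum and that of the sperm markers were both highest in replicate 1 and lowest in replicate 5. Markers of the accessory gland had no call among 11 (none at an unadjusted p under 0.05, and none by a t-test). The part of male germline RNA in the rises of these copies was not tested.

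Of 19 ovary and germline markers 7 were called lower and none higher: BicC, orb, tos (-2.26), bam (-2.16), ovo (-2.03), grk (-0.74) and swa. bam was low in KCNQ and WtPE hearts too, at 2.54 and 2.40. exu, another of the 19, had -0.83 (adjusted p = 0.329), while its second probeset was called higher by 3.02 (adjusted p = 0.000792, and 0.00287 with run as a covariate). The sums over the 19 were 600, 708, 1540, 1710 and 1670 in sei replicates, against 1880, 1870, 5440, 1550 and 5000 in WtCS replicates, so that WtCS replicates 3 and 5 were far above the rest and WtCS replicate 4 lay within the sei range. BicC read 5.36, 5.34, 7.94, 7.94 and 6.81 in sei replicates, against 8.74, 8.90, 10.49, 8.66 and 10.59 in WtCS replicates. CycB, with 10.12 and 10.47 in WtCS replicates 3 and 5 and 7.78 to 8.33 in the other 3, followed the same 2 arrays. The part of ovary RNA in the calls for BicC, orb, CycB and CycB3 was not tested. Yolk protein genes, used by female fat body and ovary, were high in all 10 arrays, Yp1 at 12.32 to 13.13 in sei hearts and 12.69 to 13.29 in WtCS hearts (-0.20, adjusted p = 0.575). Of 8 genes that mark sex 3 were called lower, Sxl, dsx and fit, and none with run as a covariate.

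**Figure D5:**
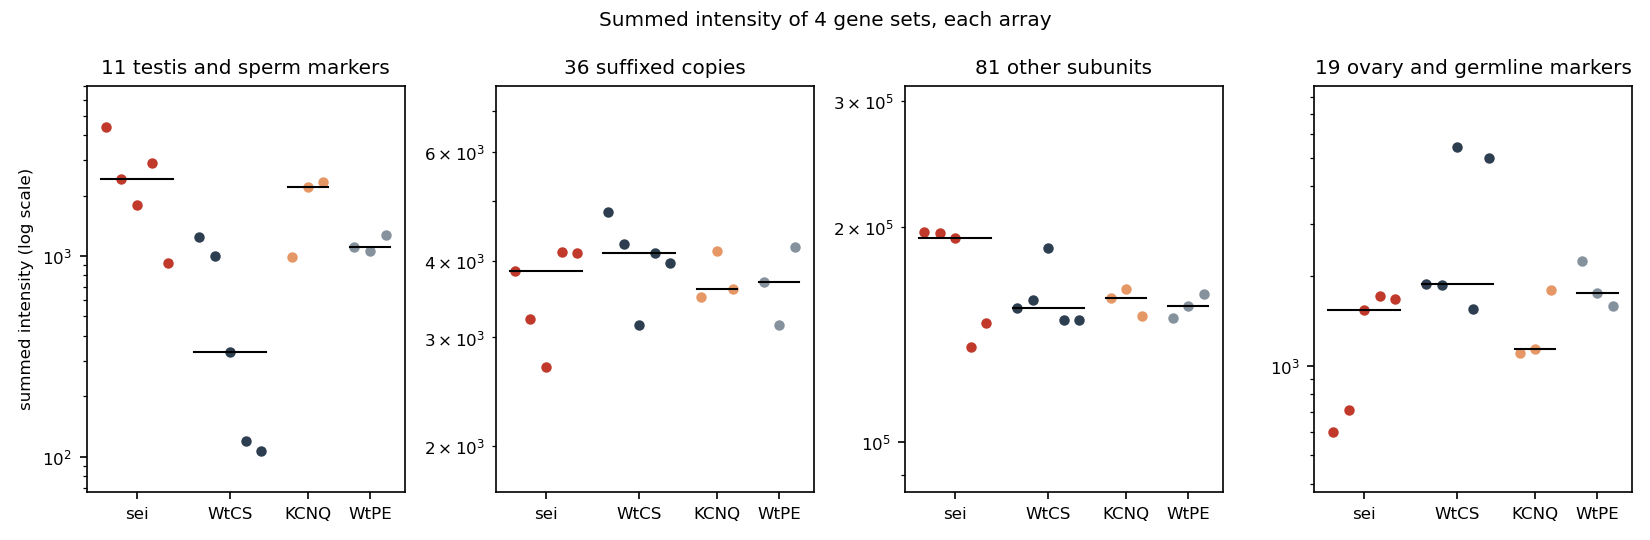
Summed intensity (vertical axes, log scale) of 11 testis and sperm markers, 36 suffixed copies, 81 other subunits of the same complexes and 19 ovary and germline markers; each point is an array, grouped as sei, WtCS, KCNQ and WtPE, and bars mark group medians. The sums of the 36 suffixed copies, which follow the few bright ones, overlap between sei (2690 to 4130) and WtCS hearts (3140 to 4800). The ovary markers are highest in WtCS replicates 3 and 5 (5440 and 5000).

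Of 13 neuronal markers 4 were called lower and none higher, and all 13 differences were below 0. Ace, acetylcholinesterase, read 1.06, 1.25, 1.25, 2.51 and 2.33 in sei replicates, against 5.76, 6.16, 4.30, 4.87 and 3.65 in WtCS replicates (-3.27, adjusted p = 0.000105), but KCNQ and WtPE hearts were low as well, at 1.51 and 2.48. Of 5 glial markers repo was called lower (-2.07, adjusted p = 0.155 with run as a covariate), the median of the 5 was 0.14, and with run as a covariate 2 were called higher and none lower. Summed intensity of the neuronal markers was 195 to 462 in sei hearts and 742 to 1190 in WtCS hearts. It was 385 to 648 in KCNQ and 415 to 913 in WtPE hearts, and 10 of the 13 are dim. Of 10 fat body markers 1, Pepck1, was higher (0.75), and their sums overlapped at 21400 to 26100 in sei hearts and 16100 to 25200 in WtCS hearts. Markers of trachea, of flight and leg muscle and of gut enterocytes had no call, with 7, 6 and 6 measured. An unadjusted p under 0.05 was reached by 1 tracheal, 1 muscle and 2 gut genes, all lower, and a t-test called none. With run as a covariate 2 of the gut markers and 1 of the tracheal markers were called lower.

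The shares of called genes differed by chromosome. On chromosome 2, which carries sei and was the target of the mutagenesis, 10.7% of 4629 genes were higher and 5.57% lower. On chromosome 3 the shares were 8.67 and 5.23% of 5316 genes, and on the X chromosome 5.51 and 6.58% of 1869 genes. The small chromosome 4 had 3.08% of 65 genes higher and 13.8% lower, and a median of -0.29. The shares of genes with sei hearts above all 11 other arrays were 2.96% on chromosome 2, 1.79% on chromosome 3 and 1.12% on the X. With run as a covariate 8.66% of the genes of chromosome 2 were higher, against 6.85% on chromosome 3, 5.19% on the X and 7.29% of all genes. The shares lower were 6.07, 5.68, 6.15 and 5.92% in the same order. Chromosome 4 then had 6.15% higher and 9.23% lower. Around sei itself, of the 20 nearest measured genes, 10 to a side, 1 was higher and 2 lower, and of the nearest 200 genes 11 were higher and 10 lower.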

How the data were processed

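The authors pooled 30 hearts per sample, hybridized the RNA to Affymetrix Drosophila Genome 2.0 arrays, ran a quality report (affyQCReport) and used the RMA routine of AltAnalyze, with versions not given in the sources used here. RMA subtracts background, equalizes the distributions of the arrays and summarizes the probes of a set. The deposited values are linear intensity per probeset and array, not the log2 values that the tests had been planned for, and their log2 was taken. Median intensity per array was 10.4 to 12.3, and precision is limited by how many arrays there are.

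Groups were read from the sample titles, and runs and sample codes from array names in the study's supplement. Of 18952 probesets 183 platform controls were left out, and no filter on level was used. limma 3.58.1 in R 4.3.3 fitted 4 group means to all 16 arrays (12 residual and 3.68 prior degrees of freedom), and p-values of sei minus WtCS received a Benjamini-Hochberg adjustment over 18769 probesets. Probesets with 1 symbol (13647) stand for 11982 genes, each by its probeset of highest mean over the 16 arrays, and 13544 were matched to the gene table given for this work. Members and lists (71 lists with 1617 measured genes) were chosen with earlier results of these data known, and no set test was run.

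Named genes were every sei probeset, the 10 largest rises and 10 largest falls among called 1-symbol probesets whose sei and WtCS arrays do not overlap and that keep their sign within runs A and C, the 2 called members of smallest p in each direction of each list, and Mhc, Apc, Apc2, pygo and CtBP, of which CtBP alone was measured, in all 157 probesets. Further genes were named after their values were seen, as were all list members beyond those 2. Alternatives were a separate fit, a robust prior, the methods' thresholds, Student's test, 2 other normalizations, a minimum mean of 5, run as a covariate, each run alone, a replicate block, code averages and each array left out. The same alternatives for chromosome counts were added after seeing the data. On simulated data of 18769 probesets, 92 of 100 changes of 2 and 46 of 100 changes of 1 on the log2 scale were found, with 10 false calls. The simulated noise was independent between arrays, without array runs or repeated sample codes, so these counts do not give the false calls in the real data.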

Additional observations from a re-analysis of the deposited data

Results flagged for a closer look

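Among the 5 arrays of a group, 18 values stood apart from the other 4 by Dixon's criterion, in 470 groups looked at, where chance gives about 1 in 20 groups. Of these 8 were sei values and 10 were WtCS values, 6 of them in WtCS replicate 3, the only control array of run C. In sei hearts CG11854 was highest in replicate 3 (4.36) and lncRNA:CR30121 in replicate 5 (2.05). Replicate 5 was lowest for dia (6.54), GNBP3 (9.51), E(bx) (1.83) and the sperm phosphoglycerate mutase Pglym87 (2.27). CG7330 was lowest in sei replicate 4 (4.68) and Mlc2 in sei replicate 3 (9.09). WtCS replicate 3 was highest for Lip4 (10.31), Npc2a (11.81), SPE (10.43), Obp99b (12.62), the second probeset of RFeSP (10.78) and GstO3 (10.84). The others were sand, lowest in WtCS replicate 5 (3.94), CG11703, highest in WtCS replicate 4 (2.75), ncm, lowest in WtCS replicate 2 (3.95), and COX7AL, highest in WtCS replicate 2 (4.83).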

How the results depend on the processing

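The 2089 calls became 1254 in a fit of the 10 arrays alone, 597 with a t-test, 855 in run A alone and 983 in run C alone. The gene list counts, 262 calls in all, became 171, 96, 151 and 129 in the same order, and the chromosome arm counts, 751 calls on both arms of chromosome 2, became 449, 224, 293 and 363. The difference of the sei transcript was -0.96 in the fit of 10 arrays (limma adjusted p = 0.0582) and with the t-test (adjusted p = 0.112), -1.35 in run A (adjusted p = 0.109) and -0.94 in run C (adjusted p = 0.321), and with each array left out it stayed past the threshold. The 2000 probesets past the methods' thresholds became 970 with a minimum mean of 5. Leaving out 1 array gave 1321 calls (without sei replicate 1) to 2674 (without WtCS replicate 3), 1390 without sei replicate 2, and 483 to 920 on chromosome 2 for the same arrays. Within run C alone Oat (-0.00), Keap1 (0.22) and mthl2 (0.03) reversed. The cause of these differences was not tested. The replicate numbers did not in general pair the arrays. Deviations from the group means correlated at 0.0343 to 0.527 between same-numbered arrays. Only for sei replicate 3 was the WtCS array of the same number the closest, and both were in run C. With the replicate block 1428 probesets were called, 499 on chromosome 2, and sei had -0.96 (limma adjusted p = 0.0579). Of 156 named probesets besides sei, 116 kept their call with every array left out and 50 under every alternative.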

Other observations

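Other families held changes of single genes. Of 32 tetraspanins, membrane organizers, 4 were higher and none lower, among them Tsp39D (1.78, limma adjusted p = 0.00342, with KCNQ at 7.38 and WtPE at 7.54 above the sei mean of 6.99) and Tsp42Ej (1.43, adjusted p = 0.00159). Cpr73D, a cuticle protein, averaged 6.61 in sei and 3.26 in WtCS hearts (3.36, adjusted p = 0.000161), above all 11 other arrays, and Cpr100A averaged 2.83 in sei and 4.83 in WtCS hearts (-2.0). Of 98 long non-coding RNAs 5 were higher and 4 lower, and lncRNA:CR32027 fell by 1.46, below all 11 other arrays. sns, which builds the filtration slit of nephrocytes, had -0.75 (adjusted p = 0.022, or 0.105 once array run was a covariate) and was the only one of 9 nephrocyte markers called. Picked after their values were seen, ncm, a splicing factor, averaged 8.38 in sei and 5.03 in WtCS hearts, and fuss, a Ski family corepressor, averaged 9.24 in sei, 5.43 in WtCS, 10.37 in KCNQ and 10.44 in WtPE hearts.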
